A study of Homo sapiens with 8 samples.

Results

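Knockdown of RND3 (RhoE) was compared with a non-silencing control 24 h after siRNA transfection of U87 cells, an established human glioblastoma line. The comparison used 6 of the 8 arrays of the series, 3 titled as RhoE knockdown (siRND3) and 3 titled as non-silencing control (siControl), and the other 2 arrays, 1 of each kind at 48 h, serve below only as a description. All groups carried siRNA delivered with a lipid transfection reagent, so the control shares the transfection and differs in the siRNA. Per the methods, RND3 was targeted by a pair of siRNA oligos. The labels neither assign an oligo to an array nor say whether replicates were separate transfections, so p-values here measure the spread between these samples, which may be technical. The question was which genes change in level when RND3 is lowered, and the pathways and gene classes are described here.

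RND3 is an atypical small GTPase: it stays bound to GTP and is regulated by its amount, location and phosphorylation. It binds the kinase ROCK1, and opposes the ROCK pathway that makes actin and myosin contract. It is known in glioma and other cells for loss of stress fibres, cell rounding, movement and effects on the cell cycle.

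Each array gave 1 colour intensities for 42405 probes, of which 68.3% to 70.7% were well above background. Pearson correlations over probes were 0.993 to 0.995 among the siControl arrays, 0.991 to 0.994 among the siRND3 arrays and 0.987 to 0.989 between the groups. All arrays lay on 1 slide with 1 scan, and the siRND3 arrays filled one row of the slide and the siControl arrays the other, so row and treatment cannot be told apart. Among cell type markers, 9 of 9 markers of a mesenchymal glioma line were well above background on all 6 arrays, of which NES rose by 0.41 and CD44 fell by 0.58. Markers of other cell types were not all absent: 6 of 6 immune, 3 of 4 endothelial, 3 of 4 oligodendrocyte, 1 of 4 astrocyte, 1 of 4 epithelial and 1 of 4 neuronal markers were well above background on all 6 arrays, at log2 levels from 4.16 (ITGAM) to 11.28 (CSF1R). The defining markers GFAP, CLDN5, CDH1 and RBFOX3 were so on none. Of these markers SLC1A3 (-0.34), PECAM1 (-0.99), SNAP25 (-0.42) and CSF1R (-0.35) fell, and their part in the results was not tested. RNA was taken from whole cultures, in which fewer cells of a type and less RNA per cell cannot be told apart.

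The targeted gene was lower on every siRND3 array. RND3 read 11.88, 11.91 and 11.90 on the siControl arrays and 10.12, 10.18 and 10.42 on the siRND3 arrays (log2 normalised intensity, the scale of all levels below). It fell by 1.66 (SE 0.10, n = 3 per group, limma adjusted p = 0.000345), to 31.7% of siControl, and the exact two-sided permutation p was 0.1, the smallest that 3 against 3 arrays allow.

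Of 14805 named genes tested, 1060 rose (7.16%) and 1371 fell (9.26%), counting genes with at least 1 probe past an adjusted p of 0.05 and none past it the other way, and 5 genes had probes past it both ways. These percentages are the background for every count of list members below. The median difference over all genes was 0.04 on the log2 scale. Falls reached further: by probes (3350 called, 11.6%), 414 called falls and 85 called rises exceeded a log2 difference of 1 in size. By the brightest probe, all siRND3 arrays lay above all siControl arrays for 23.7% of genes and below them for 17.5%, the background for groups that do not overlap. Genes chosen by the naming rule, given with the processing, had to have groups that do not overlap. None of the 593 called list members overlapped either, so such statements below only restate the choice or the call. Genes were arranged in 87 lists by function, from which RND3 and the genes the study names as lowered (MMP2, HIF1A, IL1B, IL1A, IL1R1, VEGFA, MET, TLR4, RELB and CD44) were left out, so no count below includes them. Of the lists, 39 had at least 4 members called and a called share of at least 1.5 times the background in a direction, 16 for rises and 27 for falls, 4 of them both ways. In each list below with no rise by limma, SAM called none either, and at an unadjusted p under 0.05 the number of rises ran from 0 (collagen modification, angiogenic factors, mesenchymal markers) to 5 (clock genes). The plot of called shares by list shows these groups.

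**Figure D1:**
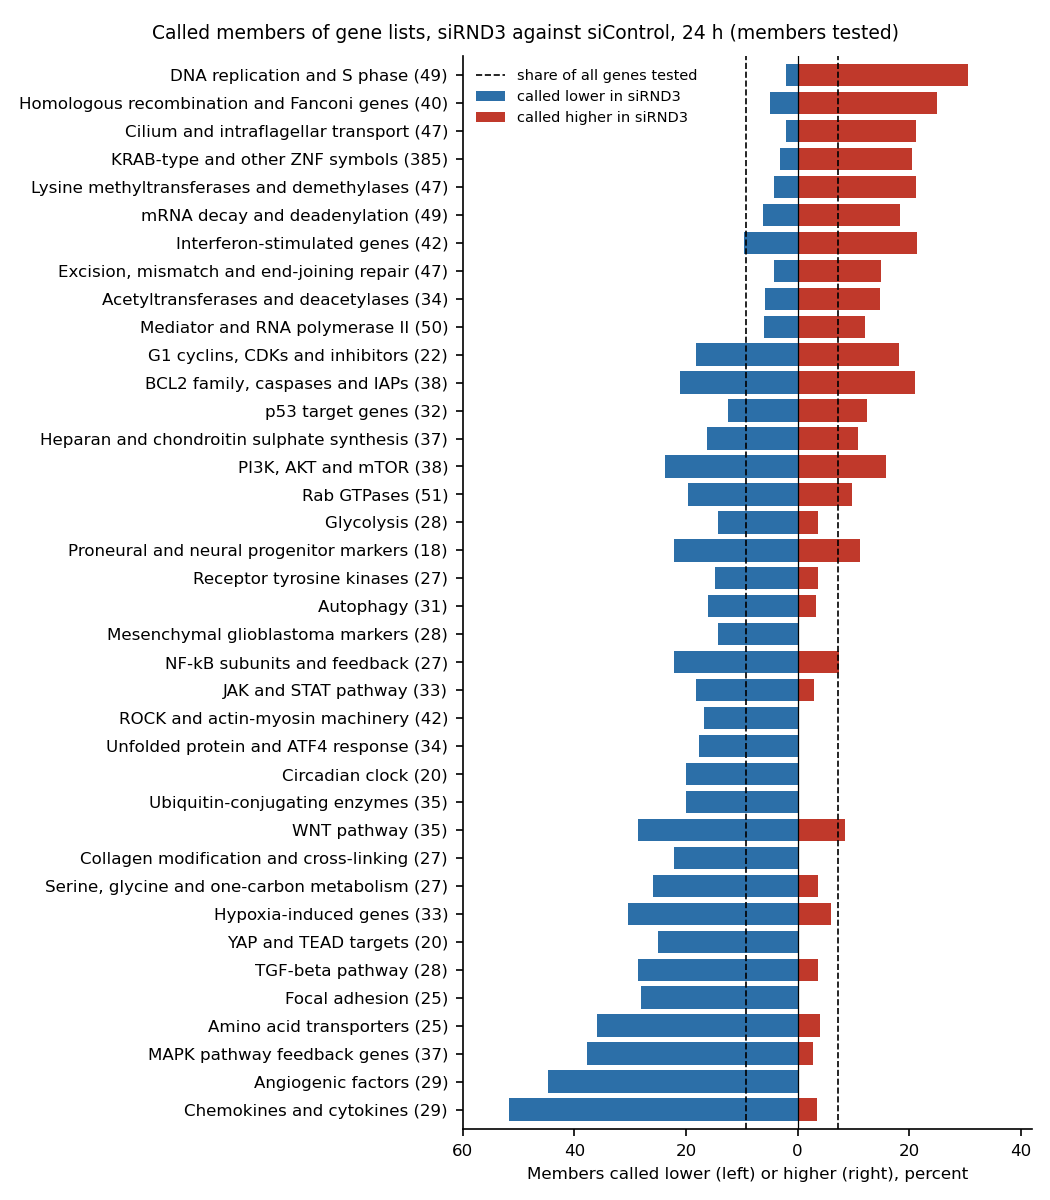
Percent of tested members called lower (left bars) and higher (right bars) at 24 h for the lists with a raised called share (1 of the 39 is not shown), with the number tested in brackets. Dashed lines mark the background over all genes tested, 9.26% lower and 7.16% higher; chemokines and cytokines have the longest bar to the left and DNA replication the longest to the right.

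Counts depended on the arrays kept, and more on siControl than on siRND3 arrays: called genes numbered 1119, 1222 and 1055 without siControl replicates 1, 2 and 3, and 1879, 1652 and 1711 without siRND3 replicates 1, 2 and 3. For each list, left-out counts are therefore given in that same order of arrays where any moved by over 1.5 times.

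Of 25 focal adhesion genes tested, which code for proteins that link integrins to actin, 7 fell and 0 rose, and 7 fell whichever array was left out. Their median difference was -0.14. VCL, the actin-binding adaptor vinculin, read 12.24, 12.04 and 12.12 on siControl and 10.78, 10.99 and 11.08 on siRND3 arrays, and fell by 1.18 (SE 0.11, adjusted p = 0.00138). FERMT2, which activates integrins, read 10.24, 10.30 and 10.31 against 9.06, 8.85 and 9.11 and fell by 1.28 (SE 0.09, adjusted p = 0.000619). For both genes every siRND3 array lay below every siControl array, as the choice of genes required. BCAR1, the scaffold p130Cas, fell by 1.20 (SE 0.10, adjusted p = 0.00098), although its other probe did not pass (-0.34), and PARVA, a partner of integrin-linked kinase, fell by 1.07 (SE 0.07, adjusted p = 0.000608).

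Falls among genes of the ROCK pathway and the actin machinery made up a smaller share of the list and were less stable. Of 42 tested, 7 fell and 0 rose (left-out counts 3, 4, 2, 6, 5 and 5), with a median of -0.03. The clearest was ARPC5, a subunit of the Arp2/3 complex that nucleates branched actin. It read 13.59, 13.55 and 13.58 on siControl arrays and 12.20, 11.97 and 12.16 on siRND3 arrays, and fell by 1.46 (SE 0.08, adjusted p = 0.000348), with its other probe also lower (-0.75). The groups were separated by more than 1 log2 unit. WASF3, which activates that complex, fell by 0.77 (SE 0.09, adjusted p = 0.00345).

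Some targets of YAP, a coactivator that responds to cell tension, and some TGF-beta pathway genes fell. Of 20 YAP targets, 5 fell and 0 rose, with a median of -0.05, and 9 had a difference above 0. AXL, a receptor tyrosine kinase, read 13.73, 13.68 and 13.72 on siControl arrays and 12.86, 12.97 and 12.89 on siRND3 arrays, and fell by 0.81 (SE 0.07, adjusted p = 0.00125). CCN2, the matricellular protein also called CTGF, fell by 0.78 (SE 0.11, adjusted p = 0.00775). Of 28 TGF-beta pathway genes, 8 fell and 1 rose, with a median of -0.20. GDF15, a stress-induced ligand of the family, read 14.72, 14.66 and 14.80 against 13.67, 13.70 and 13.67 and fell by 1.05 (SE 0.07, adjusted p = 0.000554), its siRND3 arrays nearly equal to each other. The ligand GDF11 fell by 1.13 (SE 0.11, adjusted p = 0.00196) and the feedback inhibitor PMEPA1 by 0.96 (SE 0.09, adjusted p = 0.00189).

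Most collagen genes did not pass the test, and those that did were mainly enzymes. Of 27 collagen-modifying genes, 6 fell and 0 rose (left-out counts 3, 4, 3, 4, 4 and 4), with a median of -0.07. FKBP14, a prolyl isomerase of the endoplasmic reticulum, read 9.89, 9.98 and 9.79 on siControl arrays and 6.78, 7.12 and 6.99 on siRND3 arrays. It fell by 2.93 (SE 0.11, adjusted p = 0.000139). P3H4, needed for collagen lysine hydroxylation, read 12.49, 12.53 and 12.55 against 10.72, 10.63 and 10.56 and fell by 1.89 (SE 0.08, adjusted p = 0.000143). Among 27 collagen chains 2 fell and 1 rose, also with a median of -0.07, and among 42 laminins and matrix glycoproteins 1 fell and 1 rose.

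Genes that build the sugar chains of proteoglycans split. Of 37 tested, 4 rose (left-out counts 3, 2, 2, 2, 2 and 2) and 6 fell (3, 3, 3, 4, 3 and 4). SDC4, a heparan sulfate carrier at focal adhesions, read 11.01, 10.93 and 10.97 on siControl arrays and 11.96, 12.28 and 12.16 on siRND3 arrays, and rose by 1.16 (SE 0.10, adjusted p = 0.00108). XYLT1, which adds the first sugar of the chain, read 9.11, 9.24 and 9.20 against 8.16, 8.06 and 8.33 and fell by 1.00 (SE 0.09, adjusted p = 0.0017). Both moved beyond the spread of the arrays, in opposite directions. The chain-extending enzymes also split: EXTL3 rose by 0.50 (SE 0.07, adjusted p = 0.00782), whereas EXT1 fell by 0.57 (SE 0.08, adjusted p = 0.00679) and CHSY1, which makes chondroitin, by 0.73 (SE 0.08, adjusted p = 0.00287).

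Sialyltransferases, which cap the glycans of glycoproteins and glycolipids, appeared when genes were grouped by the letters of their symbol, a grouping made after the values were seen. Of 20 tested symbols with the root ST, 8 fell (40%), 7 of them sialyltransferases. That was the largest share of falls among 103 roots with at least 15 genes, so the root is an extreme picked from many. ST3GAL2 read 9.46, 9.34 and 9.44 on siControl arrays and 6.99, 6.90 and 7.46 on siRND3 arrays, and fell by 2.30 (SE 0.15, adjusted p = 0.000514). ST8SIA5 fell by 1.66, ST3GAL3 by 0.87, ST3GAL5 by 0.59, ST6GALNAC6 by 0.45 and ST3GAL1 by 0.31. ST8SIA1 passed on another probe only, its brightest reading -0.14.

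Secreted signals formed the list with the largest share of falls. Of 29 chemokines and cytokines, 15 fell and 1 rose, with a median of -0.31 (left-out counts 10, 11, 9, 12, 14 and 13). CCL3, a macrophage chemoattractant, read 11.35, 11.40 and 11.43 on siControl arrays and 10.07, 9.95 and 9.77 on siRND3 arrays, and fell by 1.46 (SE 0.10, adjusted p = 0.000501). LIF, a cytokine of the interleukin 6 family, read 11.41, 11.17 and 11.29 against 9.92, 10.13 and 10.09 and fell by 1.24 (SE 0.10, adjusted p = 0.000884). No siRND3 array reached the level of any siControl array for either gene, as the choice of genes required. CXCL12, a ligand of CXCR4, fell by 1.48 on a single probe (SE 0.12, adjusted p = 0.000856), but its other probes read -0.31 and 0.08, neither past the test. CSF2, a myeloid growth factor, read 6.32, 6.42 and 6.35 on siControl arrays and 3.29, 2.99 and 3.67 on siRND3 arrays, where 2 of 3 were well above background. CXCL8, the neutrophil chemokine, fell by 1.31 (SE 0.24, adjusted p = 0.0187) and lost its call without any one of the siControl arrays (adjusted p of 0.0591 to 0.0644).

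The promoters of CXCL2, a neutrophil chemokine, and IL6, the acute-phase cytokine, show the letters by which NF-kB, a main activator of such genes, is often recognised. The search was for GGGNNTTNC on both strands, the 5′ end of a kB-type site, and any match is a description of letters and not a site. RefSeq windows of 250 bases before to 50 after the start held it in 35% of 20 chemokine and cytokine genes with a window, in 17.4% of tested genes with one and in 16.1% of all windows. Among the other lists searched, the share ran from 3.45% (hypoxia-induced genes) to 31.0% (42 windows of DNA replication). The called members of that last list mostly rose, so the letters were not particular to lists that fell. The 250 bases before the start are shown 5′ to 3′ on the gene's strand, with matches in capitals (RefSeq, GRCh38.p14). CXCL2 is on the minus strand at chr4:74099196-74099445, with matches beginning 193, 78 and 53 bases before the start, and IL6 on the plus strand at chr7:22726950-22727199, with a match 73 bases before it.
CXCL2: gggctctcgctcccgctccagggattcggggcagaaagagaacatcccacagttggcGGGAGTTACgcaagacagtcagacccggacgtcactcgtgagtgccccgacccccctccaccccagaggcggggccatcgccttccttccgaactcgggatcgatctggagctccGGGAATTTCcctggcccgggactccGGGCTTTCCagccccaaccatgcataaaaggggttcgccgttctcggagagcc
IL6: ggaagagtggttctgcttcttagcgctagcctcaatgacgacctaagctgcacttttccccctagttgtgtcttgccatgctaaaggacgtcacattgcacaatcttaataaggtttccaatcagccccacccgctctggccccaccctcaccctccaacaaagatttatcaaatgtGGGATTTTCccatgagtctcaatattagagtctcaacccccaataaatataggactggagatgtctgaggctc

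CXCL2 read 10.58, 10.65 and 10.64 on siControl arrays and 9.76, 9.70 and 9.95 on siRND3 arrays, and fell by 0.82 (adjusted p = 0.00292). IL6 read 9.49, 9.51 and 9.54 against 8.65, 8.71 and 8.82 and fell by 0.79 (adjusted p = 0.00185). Genes called lower held the same letters in 17.7% of their windows and genes called higher in 18.7%.

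Of 27 NF-kB pathway genes, 6 fell and 2 rose (left-out counts of falls 3, 4, 3, 4, 4 and 5), with a median of -0.06. TICAM1, the adaptor of Toll-like receptor 3, read 12.13, 12.27 and 12.09 on siControl arrays and 11.26, 11.08 and 11.14 on siRND3 arrays, and fell by 1.00 (SE 0.09, adjusted p = 0.00121). MYD88, the adaptor of most other Toll-like receptors, fell by 0.81 (SE 0.08, adjusted p = 0.00215), and IER3, an immediate early survival gene, by 0.64 (SE 0.07, adjusted p = 0.00346). Of 42 interferon-stimulated genes, 9 rose, 4 fell and 29 did not pass (left-out counts of rises 2, 2, 2, 8, 5 and 4), with a median of 0.02. IFIT2, which binds foreign RNA, read 7.65, 7.73 and 7.65 against 8.29, 8.33 and 8.54 and rose by 0.71 (SE 0.09, adjusted p = 0.0056), its other probe reading 0.22. IRF9, the DNA-binding part of the interferon response complex, rose by 0.60 (SE 0.08, adjusted p = 0.00526).

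Of 29 angiogenic factors and receptors, 13 fell and 0 rose (left-out counts 6, 7, 6, 9, 9 and 11), with a median of -0.23. HBEGF, a ligand of the EGF receptor, read 9.37, 9.22 and 9.32 on siControl arrays and 7.95, 8.12 and 8.05 on siRND3 arrays, and fell by 1.27 (SE 0.08, adjusted p = 0.000494). ANGPTL4, a secreted inhibitor of lipoprotein lipase, read 11.50, 11.57 and 11.62 against 10.57, 10.55 and 10.50 and fell by 1.02 (SE 0.07, adjusted p = 0.000608). In each, the spread within a group stayed far below the gap between groups. PDGFA, a glial mitogen, fell by 1.01 (SE 0.09, adjusted p = 0.0015), its other probe reading -0.28. Plasminogen activation, which opens the matrix, had 3 of 15 genes lower and 0 higher; PLAU, the urokinase, chosen after its values were seen, read 16.42, 16.27 and 16.46 against 14.37, 14.54 and 14.45 and fell by 1.93 (SE 0.09, adjusted p = 0.000166).

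**Figure D2:**
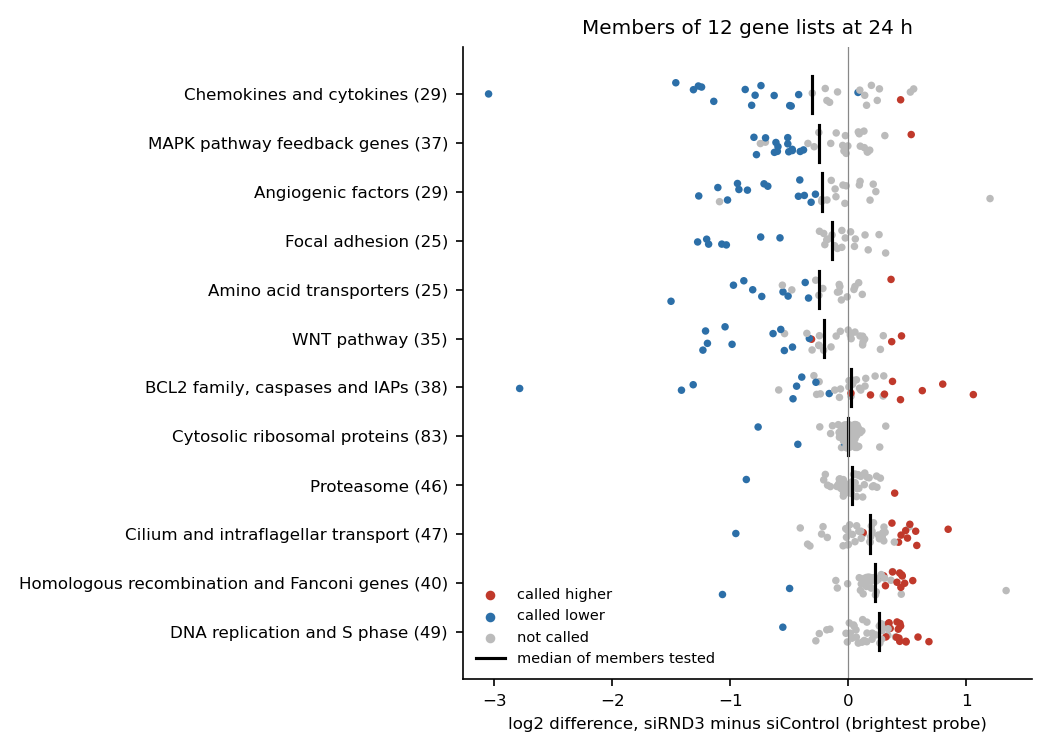
Log2 difference (siRND3 minus siControl, brightest probe) of every tested member of 12 lists at 24 h, 1 point per gene, coloured by its call over all its probes; the black tick is the list's median. The chemokine and cytokine median lies at -0.31 and that of DNA replication at 0.26, while cytosolic ribosomal proteins gather around 0.

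Among genes induced by ERK and MAPK signalling, many of which feed back on it, 14 of 37 tested fell and 1 rose (left-out counts 7, 8, 7, 11, 11 and 12), with a median of -0.25. DUSP1, a phosphatase that switches MAP kinases off, read 10.59, 10.55 and 10.62 on siControl arrays and 9.91, 9.75 and 9.77 on siRND3 arrays, and fell by 0.78 (SE 0.08, adjusted p = 0.00209). MAFF, a small MAF transcription factor, fell by 0.70 (SE 0.08, adjusted p = 0.00296) and PHLDA1 by 0.63 (SE 0.08, adjusted p = 0.00611). Of 27 receptor tyrosine kinases, 4 fell and 1 rose, but the median was 0.13 and 18 had a difference above 0. NTRK3, the neurotrophin 3 receptor, fell by 1.59 on a single probe that was not its brightest (SE 0.15, adjusted p = 0.0015). Its other probes read 0.36 and 0.19, neither past the test.

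Of 35 WNT pathway genes, 10 fell, 3 rose and 22 did not pass (left-out counts of falls 7, 9, 6, 10, 11 and 10), with a median of -0.21. LGR4, an R-spondin receptor, read 9.43, 9.42 and 9.40 on siControl arrays and 8.20, 8.07 and 8.29 on siRND3 arrays, and fell by 1.23 (SE 0.08, adjusted p = 0.000501). DVL3, a Dishevelled scaffold, read 9.44, 9.33 and 9.37 against 7.95, 8.34 and 8.28 and fell by 1.19 (SE 0.12, adjusted p = 0.00208). The siRND3 arrays differed more among themselves for DVL3 than for LGR4, and neither gene overlapped between groups, as their choice required. The receptor FZD7 fell by 1.21 (SE 0.09, adjusted p = 0.000766) and RNF43, which removes Frizzled receptors from the surface, by 1.04 (SE 0.13, adjusted p = 0.00507).

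The PI3K pathway had calls in both directions. Of 38 genes, 9 fell (left-out counts 3, 4, 4, 4, 5 and 7) and 6 rose (0, 0, 2, 5, 2 and 3). The falls included PHLPP2, an AKT phosphatase that brakes the pathway, which read 9.16, 9.09 and 9.15 on siControl arrays and 7.16, 7.50 and 7.47 on siRND3 arrays, and fell by 1.76 (SE 0.11, adjusted p = 0.000445). DDIT4, an inhibitor of mTORC1, fell by 0.67 (SE 0.07, adjusted p = 0.00298). The rises included FOXO4 (0.62), PHLPP1 (0.49), SGK3 (0.48) and EIF4EBP2 (0.41), each of which lost its call with some single arrays left out. In the JAK-STAT list, 6 of 33 fell and 1 rose (left-out counts of falls 3, 4, 3, 6, 5 and 5), among them the receptors LIFR (-0.82, SE 0.09) and IL13RA1 (-0.73, SE 0.10).

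Of 25 amino acid transporters, 9 fell and 1 rose, with a median of -0.25. SLC7A11, the cystine and glutamate exchanger, read 11.25, 11.22 and 11.27 on siControl arrays and 9.81, 9.57 and 9.84 on siRND3 arrays, and fell by 1.5 (SE 0.09, adjusted p = 0.000445). SLC7A5, a leucine carrier, read 9.14, 9.11 and 9.22 against 8.03, 8.26 and 8.26 and fell by 0.97 (SE 0.09, adjusted p = 0.00176). All siRND3 arrays were lower for both, as the choice of genes required. In the serine, folate and transsulfuration list, 7 of 27 fell and 1 rose (left-out counts of falls 3, 4, 3, 6, 6 and 6), although the median was 0.03. MTHFD2L, a mitochondrial folate enzyme, fell by 1.22 (SE 0.10, adjusted p = 0.00103) and CTH, which makes cysteine from cystathionine, by 0.81 (SE 0.08, adjusted p = 0.00196).

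Of 33 hypoxia-induced genes, 10 fell and 2 rose (left-out counts of falls 4, 4, 4, 5, 4 and 7), with a median of -0.22. NDRG1, a stress and hypoxia marker, read 14.52, 14.27 and 14.37 on siControl arrays and 13.56, 13.70 and 13.76 on siRND3 arrays, and fell by 0.72 (SE 0.10, adjusted p = 0.00705). STC2, a secreted glycoprotein, fell by 0.68 (SE 0.10, adjusted p = 0.00811). The letters ACGTG, the core that hypoxia-inducible factors bind, were found on either strand in 55.2% of 29 promoter windows of the list, in 25.9% of tested genes and in 21.6% of all windows. Genes called lower held them in 27.0% of their windows and genes called higher in 27.5%. Of 28 glycolytic genes 4 fell and 1 rose, and 1, 1, 1, 1, 1 and 2 fell with an array left out; the gene whose call did not depend on any array was PFKM, the muscle form of phosphofructokinase. It read 12.83, 12.68 and 12.75 against 10.98, 10.92 and 10.95 and fell by 1.80 (SE 0.07, adjusted p = 0.000143).

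**Figure D3:**
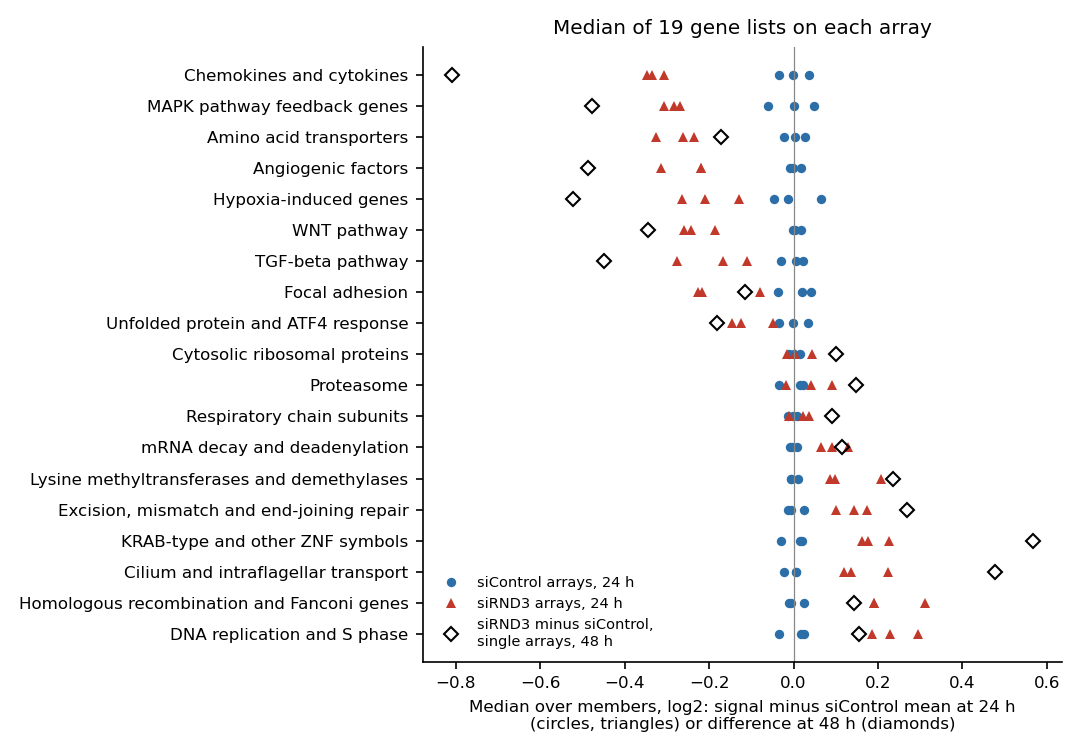
Median over members of 19 lists: circles and triangles are single siControl and siRND3 arrays at 24 h, as log2 signal minus the siControl mean, and diamonds the log2 difference between the single arrays at 48 h. The chemokine and cytokine list is lowest at both times, with a median difference of -0.31 at 24 h and -0.81 at 48 h.

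Protein handling showed falls in parts and little in the core machines. Of 31 autophagy genes, 5 fell and 1 rose (left-out counts of falls 2, 3, 2, 4, 3 and 4). ATG4A, the protease that primes ATG8 proteins, read 8.70, 8.61 and 8.72 on siControl arrays and 6.75, 6.87 and 6.89 on siRND3 arrays, and fell by 1.84 (SE 0.08, adjusted p = 0.000143). MAP1LC3B, an ATG8 protein of the autophagosome membrane, read 11.98, 11.96 and 12.10 against 10.60, 10.64 and 10.58 and fell by 1.40 (SE 0.07, adjusted p = 0.000251), with its other probe at -1.49. Both were therefore lower on all siRND3 arrays, MAP1LC3B on both of its probes. In the unfolded protein response and ATF4 list, 6 of 34 fell and 0 rose (left-out counts 2, 3, 2, 4, 3 and 4), with HSPA5, the main chaperone of the endoplasmic reticulum, lower by -0.52 (SE 0.07, adjusted p = 0.00539) and its cochaperone DNAJB9 by -0.67 (SE 0.08, adjusted p = 0.00456).

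Ubiquitin-conjugating enzymes had 7 falls and 0 rises among 35 genes (left-out counts 2, 3, 2, 4, 4 and 6), with UBE2R2, a partner of cullin ligases, lower by -0.70 (SE 0.08) and UBE2W by -0.64 (SE 0.07, other probe -0.60). Rab GTPases, which route vesicles, had 10 falls and 5 rises among 51 (left-out counts of falls 5, 6, 5, 8, 7 and 8); RAB5C, of early endosomes, read 10.11, 10.03 and 10.08 against 8.96, 9.16 and 8.96 and fell by 1.05 (SE 0.09, adjusted p = 0.000974). By contrast, 3 of 83 cytosolic ribosomal proteins fell and 0 rose, 3 of 76 mitochondrial ribosomal proteins rose and 2 fell, 1 of 71 respiratory chain genes rose and 2 fell, and 1 of 46 proteasome genes rose and 1 fell. Of 62 replication-dependent histone genes, limma called none either way, 3 rose and 1 fell at an unadjusted p under 0.05, and SAM called 1 fall. These shares lie below the background for all genes, and of 17 control genes 1 fell.

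Among genes that rose, those of DNA replication had the highest share in the cell cycle lists. Of 49 tested, 15 rose and 1 fell, with a median of 0.26, and the count of rises depended on the arrays kept (4, 2, 1, 15, 9 and 7 with an array left out), while the median stayed within 0.21 to 0.29. TIPIN, which protects stalled forks, read 11.37, 11.28 and 11.30 on siControl arrays and 11.99, 11.89 and 12.13 on siRND3 arrays, and rose by 0.68 (SE 0.09, adjusted p = 0.00519). ORC1, of the origin recognition complex, rose by 0.59 (SE 0.10, adjusted p = 0.0135) but not past the threshold without siControl replicate 2 or 3 (adjusted p of 0.0537 and 0.0545). GINS1, of the replicative helicase, rose by 0.49 (SE 0.10, adjusted p = 0.025) and lost its call without siControl replicate 1, 2 or 3 or siRND3 replicate 3 (0.0777, 0.0811, 0.0947 and 0.0578).

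The promoters of LIG1, the ligase that joins replication fragments, and E2F2, a transcription factor of the G1 to S transition, show an E2F-type word. They were chosen in the same way, by a match and then by the size of change, so the match was fixed by the choice. TTTCCCGC or TTTGGCGC on either strand was found in 42.9% of 42 promoter windows of the replication list, in 3.46% of tested genes and in 2.31% of all windows; it was found in 4.43% of genes called higher and 2.56% of genes called lower. The 250 bases before the start are shown as above, with the match in capitals. LIG1 is on the minus strand at chr19:48170345-48170594, its match beginning 114 bases before the start, and E2F2 on the minus strand at chr1:23531234-23531483, its match 42 bases before it.
LIG1: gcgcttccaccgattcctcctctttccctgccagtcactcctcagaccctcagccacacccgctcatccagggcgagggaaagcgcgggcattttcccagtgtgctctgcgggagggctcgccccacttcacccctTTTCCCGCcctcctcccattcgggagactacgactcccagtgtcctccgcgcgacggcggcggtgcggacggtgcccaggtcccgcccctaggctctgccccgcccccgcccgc
E2F2: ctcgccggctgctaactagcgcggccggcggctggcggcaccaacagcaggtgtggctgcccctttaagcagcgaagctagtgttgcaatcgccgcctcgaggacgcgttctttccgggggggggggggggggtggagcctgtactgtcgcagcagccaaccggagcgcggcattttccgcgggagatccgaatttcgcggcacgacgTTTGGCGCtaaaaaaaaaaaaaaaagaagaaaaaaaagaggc

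LIG1 read 10.43, 10.47 and 10.36 on siControl arrays and 10.92, 10.94 and 10.86 on siRND3 arrays, and rose by 0.49 (SE 0.07, adjusted p = 0.00865), with an adjusted p of 0.051 without siControl replicate 3. E2F2 read 11.48, 11.46 and 11.46 against 12.01, 11.85 and 11.86 and rose by 0.44 (adjusted p = 0.0159). All siRND3 arrays were above all siControl arrays for both, and no called list member had groups that overlap.

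Some repair genes also passed the test. Of 40 homologous recombination and Fanconi genes, 10 rose, 2 fell and 28 did not pass, with a median of 0.23 (left-out counts of rises 0, 2, 2, 9, 10 and 7). BRCA1 read 9.79, 9.80 and 9.86 on siControl arrays and 10.35, 10.25 and 10.49 on siRND3 arrays, and rose by 0.55 (SE 0.09, adjusted p = 0.0117; 0.0531 without siControl replicate 1). Of 47 excision and mismatch repair genes, 7 rose and 2 fell, with a median of 0.15 (left-out counts of rises 1, 1, 1, 4, 4 and 2). With 0 to 2 rises left when a siControl array was omitted, both counts rest on having all 3 of them.

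Regulators of the G1 phase went both ways, with the larger changes downward. Of 22, 4 rose (left-out counts 1, 1, 1, 2, 3 and 2) and 4 fell. CDK2, the kinase that acts with cyclins E and A, read 7.60, 7.65 and 7.64 on siControl arrays and 5.93, 5.86 and 6.02 on siRND3 arrays, and fell by 1.70 (SE 0.07, adjusted p = 0.000154). SKP2, the F-box protein that removes the inhibitor p27, read 7.98, 8.22 and 8.02 against 6.77, 6.98 and 6.96 and fell by 1.17 (SE 0.10, adjusted p = 0.00117). Both genes were lower on all siRND3 arrays, as their choice required, while the replication list was mostly higher. In the p53 target list 4 of 32 rose and 4 fell, and 2 rose whichever array was left out; BBC3, the death protein PUMA, rose by 0.80 (SE 0.07, adjusted p = 0.0015) and BTG2, an antiproliferative factor, by 0.62 (SE 0.07, adjusted p = 0.00383).

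Of 38 death regulators 8 rose (left-out counts 2, 2, 3, 5, 2 and 2) and 8 fell (5, 5, 4, 6, 4 and 6). CASP6, an executioner caspase, read 9.63, 9.62 and 9.64 on siControl arrays and 8.31, 8.28 and 8.36 on siRND3 arrays, and fell by 1.31 (SE 0.07, adjusted p = 0.000218). Its arrays differed little within each group and, as its choice required, did not overlap between them. Among death inhibitors, CFLAR, the inhibitor of caspase 8, fell by 1.41 (SE 0.07, adjusted p = 0.000213; other probe -0.12) and BCL2 by 1.26 (SE 0.13, adjusted p = 0.00253; other probe -0.16).

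Of 47 lysine methyltransferases and demethylases, 10 rose and 2 fell, with a median of 0.11 (left-out counts of rises 6, 7, 3, 10, 7 and 7). SETD7, which methylates histone H3 and other proteins, read 8.51, 8.37 and 8.43 on siControl arrays and 9.34, 9.27 and 9.43 on siRND3 arrays, and rose by 0.91 (SE 0.08, adjusted p = 0.00127). DOT1L, a histone methyltransferase of transcribed genes, rose by 0.73 (SE 0.09, adjusted p = 0.00583), with its other probe at 0.69. Among 34 acetyltransferases and deacetylases 5 rose and 2 fell (left-out counts of rises 3, 2, 2, 8, 4 and 4), HDAC1 by 0.52 (SE 0.08, adjusted p = 0.00888) and SIRT5, a mitochondrial desuccinylase, by 0.76 (SE 0.09, adjusted p = 0.00454; other probes 0.09 and 0.55).

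Of 49 mRNA decay genes, 9 rose and 3 fell (left-out counts of rises 3, 4, 2, 4, 6 and 6), with a median of 0.10. DCP2, the decapping enzyme, read 7.72, 7.79 and 7.85 on siControl arrays and 8.78, 8.77 and 8.98 on siRND3 arrays, and rose by 1.05 (SE 0.09, adjusted p = 0.00115). Its enhancer EDC3 rose by 0.61 (SE 0.09, adjusted p = 0.00855). Among 50 Mediator and RNA polymerase II genes 6 rose and 3 fell (left-out counts of rises 3, 3, 3, 4, 4 and 3); MED11, of the Mediator head, read 9.26, 9.37 and 9.25 against 10.30, 10.46 and 10.34 and rose by 1.08 (SE 0.08, adjusted p = 0.000742). Symbols of the DHX root, RNA helicases, had 6 rises of 16 tested (37.5%), namely DHX8, DHX34, DHX35, DHX37, DHX57 and DHX58. That was the largest share of rises among the 103 roots, again a grouping by letters made after the values were seen.

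Genes of the primary cilium, the sensory projection that most cells assemble outside mitosis, rose in 10 of 47 cases and fell in 1, with a median of 0.19 (left-out counts of rises 2, 3, 4, 8, 7 and 7). IFT27, of the intraflagellar transport train, read 8.89, 8.71 and 8.83 on siControl arrays and 9.56, 9.72 and 9.66 on siRND3 arrays, and rose by 0.84 (SE 0.08, adjusted p = 0.00216). SPEF1, a microtubule protein of motile cilia outside the list, read 6.76, 6.59 and 6.58 against 7.89, 7.85 and 8.04 and rose by 1.28 (SE 0.09, adjusted p = 0.000616). Zinc finger genes with ZNF symbols were the most numerous class that rose, 79 of 385 with 12 falls and a median of 0.17 (left-out counts of rises 43, 48, 42, 62, 63 and 50). ZNF267 read 7.11, 7.21 and 6.89 on siControl arrays and 8.43, 8.40 and 8.51 on siRND3 arrays, and rose by 1.37 (SE 0.10, adjusted p = 0.00075). Related zinc finger genes share sequence, and probes were not checked here for binding more than one of them.

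Glioma identity genes were mostly not called. Of 28 mesenchymal markers, a list from which CD44 was left out as above, 4 fell and 0 rose (2 fell without siControl replicate 3), with a median of -0.07. Of 18 proneural markers 4 fell and 2 rose, but the median was 0.10 and 11 had a difference above 0. CTSB, the lysosomal protease cathepsin B, read 13.69, 13.63 and 13.65 on siControl arrays and 11.42, 11.13 and 11.12 on siRND3 arrays, and fell by 2.43 (SE 0.10, adjusted p = 0.000143). RUNX1, a transcription factor, fell by 1.24 on a single probe (SE 0.08, adjusted p = 0.000514), while 4 other probes read -0.23 to 0.02. PAX6, a neural transcription factor, read 8.18, 8.25 and 8.22 against 7.40, 7.23 and 7.27 and fell by 0.92 (SE 0.08, adjusted p = 0.00117; other probe -0.23). Of 20 clock genes 4 fell and 0 rose (left-out counts 2, 1, 1, 2, 3 and 3), with NPAS2, a partner of BMAL1, lower by -0.60 (SE 0.08, adjusted p = 0.00703).

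**Figure D4:**
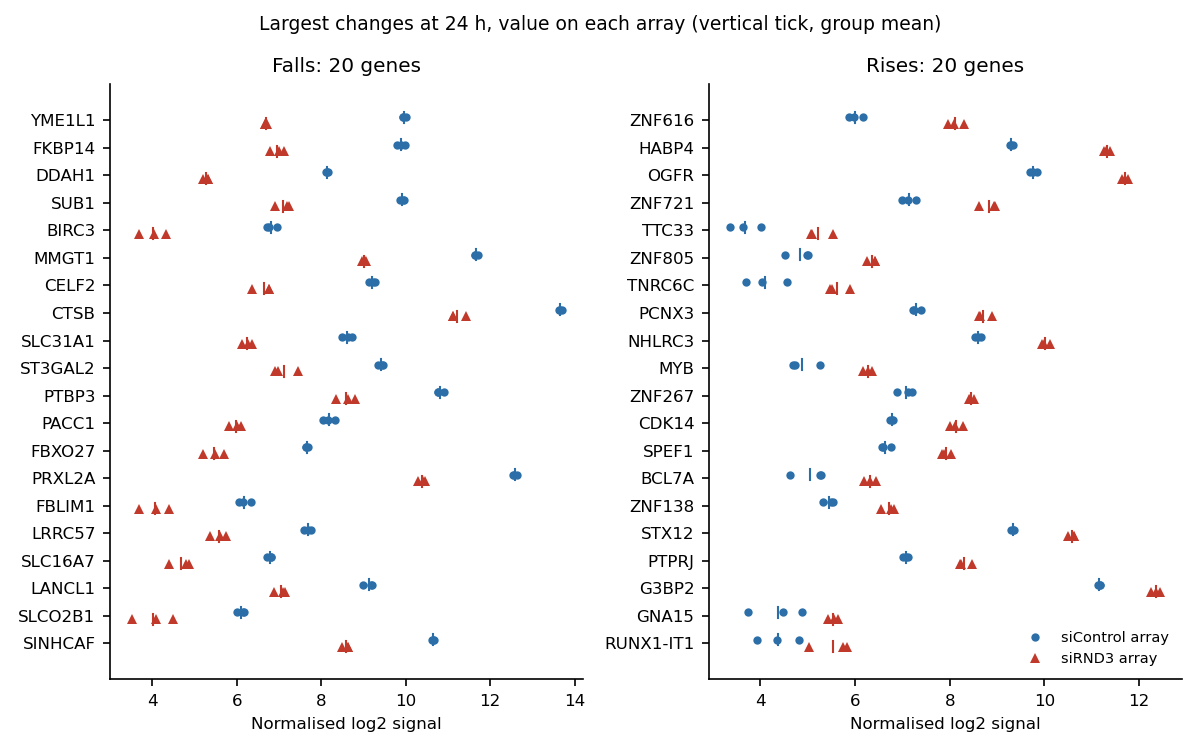
Log2 normalised signal on each of the 6 arrays at 24 h for the 20 largest falls (left) and 20 largest rises (right) among genes well above background on all 6 arrays; ticks are group means. The groups do not overlap, as the choice of genes required, and the differences reach -3.28 (YME1L1) and 2.11 (ZNF616).

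Some of the largest changes lay outside every list. YME1L1, a protease of the inner mitochondrial membrane, read 10.02, 9.94 and 9.93 on siControl arrays and 6.70, 6.67 and 6.67 on siRND3 arrays, and fell by 3.28 (SE 0.07, adjusted p = 3.72e-05), yet its other probe read -0.24 and did not pass. SUB1, a transcriptional coactivator, showed the same split, with 9.86, 9.97 and 9.93 against 7.19, 6.90 and 7.23 on one probe, which fell by 2.81, and a difference of -0.01 on the other. Such falls therefore hold for the probe and not for the gene as a whole. PRXL2A, a redox protein, had both probes lower: its brighter probe read 12.57, 12.54 and 12.63 against 10.30, 10.40 and 10.45 and fell by 2.19 (SE 0.08, adjusted p = 0.000139), and the other read -2.25. SINHCAF, a subunit of a histone deacetylase complex, likewise read -2.06 and -3.35, and PTBP3, a splicing repressor, -2.21 and -2.08. Within a list, that of metal transport, the copper importer SLC31A1 read -2.37 and -2.32.

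LANCL1, a glutathione-binding protein, read 9.20, 8.99 and 9.18 on siControl arrays and 6.88, 7.09 and 7.13 on siRND3 arrays, and fell by 2.09 (SE 0.10, adjusted p = 0.000213). Upward, OGFR, the opioid growth factor receptor, read 9.69, 9.84 and 9.76 against 11.64, 11.77 and 11.70 on a single probe. That probe rose by 1.94 (SE 0.08, adjusted p = 0.000143), while its other probe read 0.19. G3BP2, of stress granules, read 11.17, 11.17 and 11.13 against 12.36, 12.24 and 12.45 and rose by 1.19 (SE 0.08, adjusted p = 0.000532). The levels of both rising genes were tightly grouped within each treatment. STX12, an endosomal syntaxin, rose by 1.25 (SE 0.07, adjusted p = 0.000369), CDK14, a cyclin-dependent kinase of WNT signalling, by 1.36 (SE 0.09, adjusted p = 0.000549) and PTPRJ, a receptor phosphatase, by 1.24 (SE 0.09, adjusted p = 0.000789). Among 805 called genes with more than 1 probe tested, every probe was called in 207, and 138 had probes with opposite signs.

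By kind of transcript, probes for coding RefSeq transcripts were called higher in 6.07% and lower in 8.35% of 18581 cases, whereas long intergenic non-coding probes, none of which could be named here, were called higher in 3.83% and lower in 2.33% of 5149. Calls did not lean to one side with signal: by quartile of mean intensity, from the dimmest, 48.5%, 44.4%, 43.1% and 46.6% of called probes were higher. The dimmest genes did depend on the background correction. With normexp correction, which pulls dim values together, the fall of CDK2 was -1.02, of CXCL12 -0.65, of CXCL8 -0.81, of BCL2 -0.56, of FZD7 -0.46, of RNF43 -0.58, of NTRK3 -0.67, of LIFR -0.53 and of MTHFD2L -0.74, and the rise of ZNF616 was 1.27.

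At 48 h, with 1 array per group and so no test, RND3 read 11.48 on the siControl and 9.84 on the siRND3 array. Of the 200 genes chosen by the naming rule, 199 differed in the same direction as at 24 h, and 179 by a larger size. That rule took genes by their change at 24 h, and the share over all genes is not given here. The arrays at 48 h lay in the same slide rows as their treatments, so row and treatment cannot be told apart at either time. CCL3 read -4.27 at 48 h, ANGPTL4 -3.89 and SLC7A11 -2.24, each further from 0 than at 24 h, whereas DCP2 read 0.52 and CTH -0.72. The difference between the times was not tested, since the later time has no replicates.

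**Figure D5:**
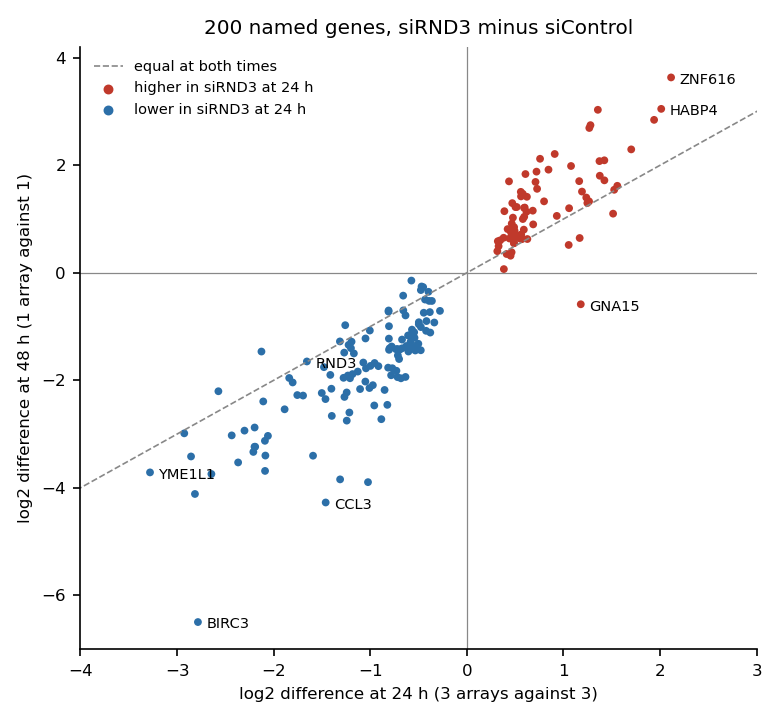
Log2 difference (siRND3 minus siControl) of the 200 genes chosen by the naming rule at 24 h (horizontal, 3 arrays per group) and at 48 h (vertical, 1 array per group). The diagonal marks equal differences; 199 genes lie in the quadrants of equal sign and 179 are further from 0 at 48 h.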

How the data were processed

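Groups, times and replicate numbers came from the deposited labels. The authors scanned 1-colour Agilent arrays and ran Feature Extraction 10.7.3.1; the deposited scanner output gives linear spot intensity after background correction within each array. The authors also deposited log2 values, quantile-normalised per their methods, used here as an alternative. Here the processed intensity was log2-transformed and all 8 arrays were quantile-normalised together. Control spots and spots marked as outliers were left out, and spots of 1 probe were averaged. A probe was tested where each of the 3 arrays of either 24 h group had it well above background (28759 of 42405) with limma 3.58.1 in R 4.3.3 (lmFit, eBayes) on the 6 arrays at 24 h, with Benjamini-Hochberg adjustment over all of them. This called 3350 probes (11.6%; 1515 higher, 1835 lower). The script was also tested on simulated data. The number of arrays limits the precision.

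Probes were named through RefSeq transcript accessions (25422 probes, 60.0%). In list medians and symbol groups, a gene takes its value from its brightest probe. A list member or largest change described by name takes it from its brightest called probe. Where the naming rule below chose the gene, that probe also had to meet the rule, so it need not be the gene's brightest. At least N-fold marks a bound: the brighter group's mean was set against a floor for the dim group, on each array its own value or the dimmest signal well above background, whichever was higher. The gene lists, from which RND3 and 10 genes the study names as lowered were left out, and the members described were chosen with earlier results of these data known. The naming rule took RND3, then from each list with at least 4 called members and a called share of at least 1.5 times the background up to 4 members with the largest change, well above background on all 6 arrays and with groups that do not overlap, then the 20 largest rises and 20 largest falls. From these 200 genes the text mainly describes those whose call held under every alternative, a choice made after those were run. CSF2, CXCL2, IL6 and E2F2 were named after their values were seen, as was PLAU. The genes with printed promoters were chosen among called members that hold the match. A few genes and lists are not reported here.

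Same-numbered arrays did not deviate together (correlations of 0.002, -0.0118 and 0.1286), so the replicate numbers were not used to pair samples. Alternatives were 75th percentile scaling, normexp with an offset of 50, the authors' log2 values, normalisation over 6 arrays, other filters, SAM (20 assignments, false discovery rate 5%), array weights, a replicate block and each array left out. Promoter sequences are from RefSeq (GRCh38.p14), matched for 11709 of 14805 genes tested.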

Additional observations from a re-analysis of the deposited data

Results flagged for a closer look

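A gene and 5 list medians differed one way on all siRND3 arrays at 24 h and the other way on the single arrays at 48 h. GNA15, a G protein alpha subunit of blood cells, read 4.48, 4.88 and 3.74 on siControl arrays and 5.65, 5.44 and 5.55 on siRND3 arrays at 24 h (1.18 higher, adjusted p = 0.0406), and the difference was -0.59 at 48 h. Its call at 24 h was lost without siControl replicate 1 or any one siRND3 array (adjusted p of 0.0951 to 0.101), with no filter on dim probes, with array weights and with the replicate block, and its difference was 0.33 with normexp and 0.52 with the authors' log2 values. The median of the G2 and mitosis list was 0.13 at 24 h and -0.31 at 48 h, and that of cohesin and condensin 0.07 and -0.0307. Metalloproteinases and their inhibitors read 0.04 and -0.13. Endothelial and pericyte markers read -0.17 and 0.0198, and genes of transport from the endoplasmic reticulum to the Golgi -0.10 and 0.0182. The difference between the times was not tested in any of these, since 48 h has 1 array per group.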

How the results depend on the processing

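RND3 kept its direction and its call under every alternative run, and so did 124 of the 200 genes chosen by the naming rule; none reversed. Of the 76 that lost their call somewhere, 42 did so only under the replicate block or with an array left out. With the replicate block, which pairs arrays by number, 1651 probes and 1216 genes were called in place of 3350 and 2431; since the numbers did not pair the samples, a call lost there is not described as a weaker effect. With 1 array left out, called probes ranged from 1379 (without siControl replicate 3) to 2574 (without siRND3 replicate 1) and called genes from 1055 to 1879; fewer arrays were then in the fit. Scaling to the 75th percentile called 1894 probes higher and 1708 lower, so 52.6% of calls were higher against 45.2%, and moved the median of all genes from 0.04 to 0.07. Without a filter on dim probes 1011 rose and 1388 fell among 42405. The authors' values called 1827 and 2051, normexp 2073 and 2137 and SAM 1766 and 2225. Of the probes called here, 95.1% were also called with 75th percentile scaling, 87.1% with normexp and 88.9% with the authors' values. Dim probes limit the folds: under normexp the differences of BIRC3 and TTC33 were -1.17 and 0.42.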
